A study of Mus musculus with 12 samples.

Results

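Genes of the synaptic vesicle and of the machinery that releases it were followed in the mouse hippocampus after neuronal inhibition of miR-9 or miR-34. The set was a list of 44 gene symbols chosen by name. The rule used no measured value, but earlier results of these data were known when the list was chosen. The list was divided by role into 16 genes of vesicle proteins, 15 of the fusion machinery, 8 of the active zone and 5 of endocytosis. Of these, 43 were joined to at least 1 of the 32850 RefSeq entries, out of 24209 genes after entries were summed by symbol. No entry was joined to Syt5, which therefore has no value here. A mean above 10 reads was needed for testing, and 38 members passed in each experiment, namely 15 vesicle proteins, 13 fusion genes, 7 active zone genes and 3 endocytosis genes.

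The hippocampi came from 12 male C57BL/6 mice that received AAV5 into the hippocampus at 10 weeks of age and were analysed 10 weeks later. All vectors used a synapsin promoter, which restricts expression to neurons. Control mice received a vector for GFP alone (GFP Ctrl), and the others a GFP transcript carrying a sponge, a row of binding sites that occupies the miRNA, for miR-9 (GFP-miR-9sp) or miR-34 (GFP-miR-34sp). Each experiment compared 3 sponge mice with its own 3 GFP Ctrl mice. The labels name the cells as hippocampal neurons, but the RNA came from whole tissue, and 6 astrocyte markers summed to 3085 to 3527 CPM (counts scaled to 1000000 per mouse) in every mouse, against 4469 to 5400 for the 9 neuron markers that were joined. Neurons that received no vector are therefore also included, and in such bulk samples fewer cells of a type and less RNA per cell cannot be told apart. Neither the sponge transcripts nor the mature miRNAs are among the values used here. Between 17279620 and 24428477 reads per mouse were counted in the miR-9 experiment, and between 11029604 and 16934133 in the miR-34 experiment. A limit of 3 reads corresponded to shares between 1.23e-05% and 2.72e-05% of a library, and such limits describe counting error alone.

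Neurotransmitter is loaded into vesicles by transporters such as the products of Slc17a7 (VGLUT1) and Slc17a6 (VGLUT2). Vesicles are primed at the active zone by Unc13 and Rims proteins and fuse when the SNARE proteins synaptobrevin (Vamp genes), SNAP-25 (Snap25) and syntaxin (Stx1a) zip together, with complexins and synaptotagmins setting the timing. Their membrane is then retrieved by endocytosis, in which dynamin-1 (Dnm1), endophilin (Sh3gl2) and synaptojanin (Synj1) take part. A miRNA recognises its targets mainly through its seed, bases 2 to 8, and usually lowers the level or translation of the target mRNA.

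The mature sequences of the sponged miRNAs (RefSeq, GRCm38.p6) are shown because the sites searched in the members follow from them, with the seed in capitals. All 3 Mir9 genes give the same miR-9-5p. The seeds of miR-34a-5p and miR-34b-5p are identical, so both share their sites. miR-34c-5p belongs to the same family.
miR-9-5p: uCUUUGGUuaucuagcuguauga
miR-34a-5p: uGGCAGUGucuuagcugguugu
miR-34b-5p: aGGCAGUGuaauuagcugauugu

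A site was taken as the 8mer ACCAAAGA for miR-9 or CACTGCCA for miR-34 on the transcribed strand of the longest 3′ UTR of the gene (GENCODE M1, mm9), that is, the complement of the seed followed by A. For miR-34, 7 of 43 members with a 3′ UTR held a site (16.3%), against 6.06% of 10784 tested genes. These 43 include Syt5 and the members that were not tested, and leave out Unc13c, for which no 3′ UTR was found. Among tested members with a 3′ UTR, 7 held a miR-34 site and 30 did not. The member UTRs were longer, with a median of 2171 bases against 1186, and the part of UTR length in these shares was not tested. For miR-9, 1 of 43 members held a site (2.33%), against 4.44% of tested genes. When the 7 bases matching the seed sufficed, these shares were 23.3% and 13.8%. The sites are shown with the 8mer in capitals and 11 flanking bases on each side, as the stretches that the sponge effects on these members can be read against.
Syn2, miR-34, chr6:115226305-115226312 (+), exon 11 of 11: attacagctccCACTGCCActcgaaagcag
Vamp2, miR-34, chr11:68905448-68905455 (+), exon 5 of 5: ggggtactagtCACTGCCAatatgtgttgg
Syt2, miR-34, chr1:136646873-136646880 (+), exon 9 of 9: ttccaaaccttCACTGCCAcctggggggcg
Cplx2, first miR-34 site, chr13:54481685-54481692 (+), exon 4 of 4: ttcatgctcccCACTGCCAggaggaccact
Cplx2, second miR-34 site, chr13:54482113-54482120 (+), exon 4 of 4: tcctgggacccCACTGCCAggctaggcccg
Rims2, miR-34, chr15:39511269-39511276 (+), exon 26 of 28: aggttccaagaCACTGCCAgcaccgtatgt
Pclo, miR-34, chr5:14712466-14712473 (+), exon 8 of 26: agtgaagagaaCACTGCCAaatccccctcc
Synj1, miR-34, chr16:90937411-90937418 (-), exon 33 of 33: tttgtctcctgCACTGCCAgtatgcaactg
Synj1, miR-9, chr16:90938081-90938088 (-), exon 33 of 33: catggatacttACCAAAGAgcttccagagt
Cplx2 held 2 miR-34 sites, and Synj1 was the member with a site for both miRNAs. The Pclo and Rims2 sites lie upstream of the last exon of the transcript searched, and its annotated 3′ UTR runs on into later exons. When the UTR was instead taken from the transcript with the longest coding sequence, a choice made after the data were seen, miR-34 sites remained in Cplx2, Syt2 and Synj1 (6.98% of members and 5.14% of tested genes) and the miR-9 site in Synj1 remained.

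The level of a member per length, in reads per kb of entry and per 1000000 counted reads (RPKM), varied with how many RefSeq entries it had. Across all genes the median RPKM of the 6 GFP Ctrl mice was 1.33 for 19040 genes with 1 entry, 0.0748 for 2669 genes with 2 entries and 0.0385 for 2068 genes with 3 or more. Members showed the same order, with a median of 67.7 for 26 members with 1 entry and 0.618 for 17 members with more. Synapsin-1 (Syn1), an abundant vesicle protein, had 13 to 45 reads per mouse over 2 entries. Rab3a, the vesicle GTPase, and Snap91, an adaptor of clathrin coats, had 0 reads in all 12 mice over 2 and 5 entries. A count of 0 allows up to the limit of 3 reads given above, and since the rule for reads shared between entries is not given, low counts of members with several entries are not read here as low expression. Amph (4 reads over the 12 mice), Rims1 (32 reads) and Syt3 (32 reads) were the other members below the limit for testing, and each had 2 or more entries.

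Among the members with 1 entry, the order of levels could be read. Vamp2, the main neuronal synaptobrevin, had the highest mean, at an RPKM of 942 ± 12.3 (SD, n = 3) in GFP Ctrl of the miR-9 experiment and 766 ± 8.48 in GFP Ctrl of the miR-34 experiment. Synaptophysin (Syp), the classical vesicle membrane marker, followed at 804 ± 8.03 and 756 ± 19.7, and Slc17a7 at 796 ± 51.0 and 706 ± 12.2. Vamp2 and Syp did not overlap in the miR-9 experiment and overlapped in the miR-34 experiment (758 to 775 and 736 to 775). Syp and Slc17a7 overlapped in the miR-9 experiment and did not overlap in the miR-34 experiment. Complexin-2 (Cplx2) at 578 ± 40.1 and 633 ± 4.65 and Dnm1 at 592 ± 16.8 and 537 ± 4.59 were next, overlapping each other in the miR-9 experiment and with Cplx2 above Dnm1 in the miR-34 experiment. At the other end stood Slc17a6 (mean of 6 mice 9.77), Syt2, a synaptotagmin of fast synapses (8.15), the Munc13 isoform Unc13c (8.10), Sv2c (6.40) and Cplx3 (4.72).

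**Figure D1:**
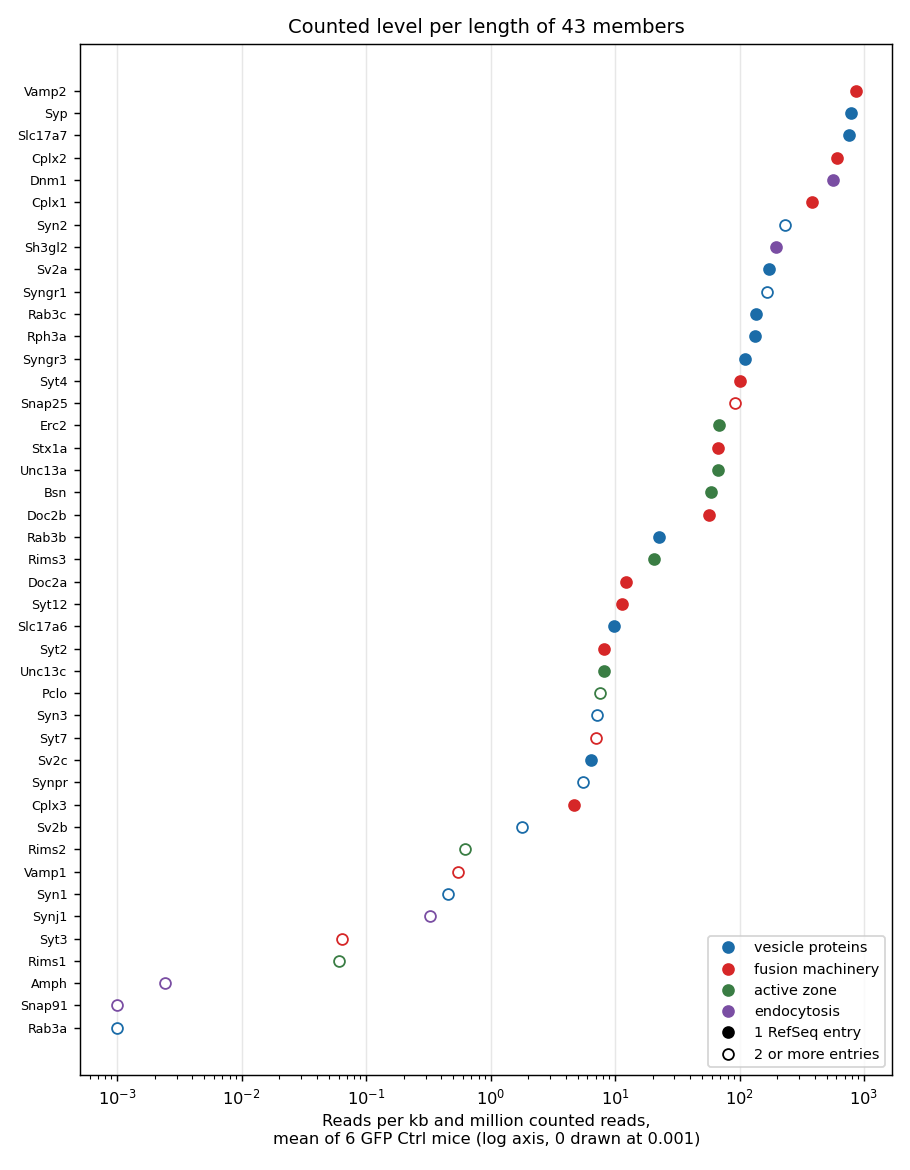
Mean RPKM in the 6 GFP Ctrl mice (log axis) for 43 members, coloured by role, with filled points for 1 RefSeq entry and open points for 2 or more. The highest members with 1 entry are Vamp2 (854), Syp (780) and Slc17a7 (751), and the lowest points are all open.

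Inhibition of miR-9 was followed by small differences in vesicle and release genes, most of them upward, and none passed correction for multiple testing. With edgeR's quasi-likelihood test and Benjamini-Hochberg adjustment, 0 of 38 members had an adjusted p under 0.05, as had 0 of 13045 genes (0%), and DESeq2 called 0 members and 2 genes. The adjusted p of the members lay between 0.970 and 0.995. At an unadjusted p under 0.05, 10 members passed (26.3%, against 4.73% of all genes). Of these, 9 members were higher and 1 was lower, which is 23.7% and 2.63% of the members tested, against 2.47% and 2.26% of all genes. DESeq2 gave 6 members higher and 1 lower at that limit, against 1.32% and 0.905% of all genes. The count of 9 rested on single mice, since it fell to 1 (2.63%, against 1.26% of all genes) without GFP Ctrl mouse 16. Without any other mouse it lay between 5 and 6 (13.2% to 15.8%, against 2.02% to 3.35% of all genes). It was 4 higher and 1 lower when reads were scaled by totals alone, where 1.46% and 3.71% of all genes were called. The log2 fold change was above 0 in 26 members (68.4%), against 49.7% of genes, with a median of 0.05 in the members and -0.00062 in all genes. No member passed the criterion of the study's methods, an unadjusted p under 0.05 in an unpaired two-sided test with a ratio above 1.2 or below its inverse, which 0.466% of genes passed upward and 0.971% downward. By role, the median log2 fold change was 0.04 for vesicle proteins, 0.04 for the fusion machinery, 0.10 for the active zone and 0.08 for endocytosis. In further genes of these roles that are not in the list, described below, the medians were 0.008, 0.04, 0.03 and -0.005.

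**Figure D2:**
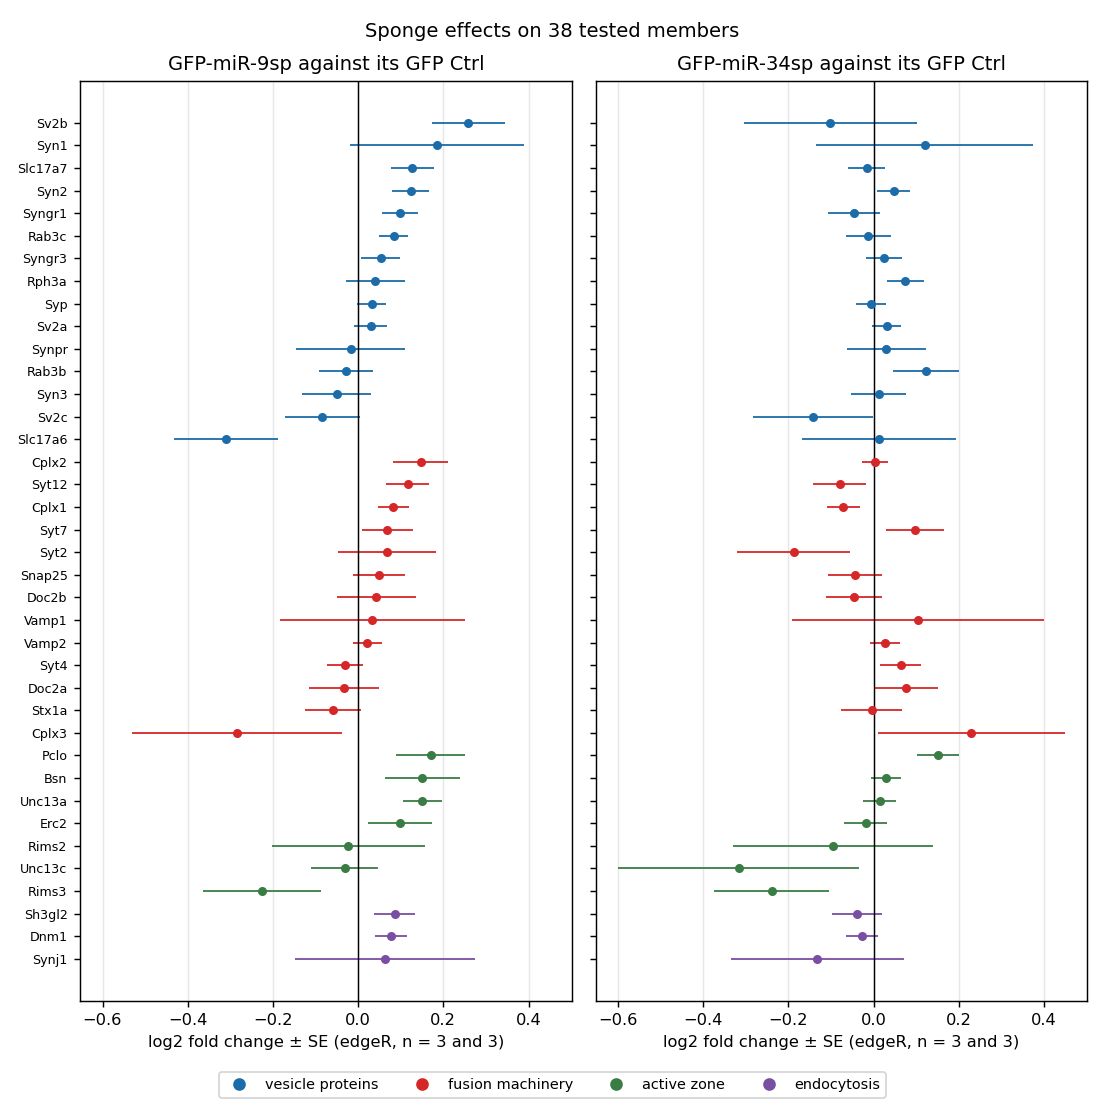
Fitted log2 fold change (x axis) of the 38 tested members in each experiment, with bars for the standard error of the edgeR fit and colours for roles. In the left panel 26 points lie above 0, and in the right panel 19, and no member passed an adjusted p of 0.05 in either.

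Among vesicle proteins, Sv2b, a glycoprotein of the vesicle membrane that regulates release, had 224, 217 and 218 scaled reads in GFP-miR-9sp mice 17, 23 and 9, and 176, 184 and 200.5 in GFP Ctrl mice 16, 2 and 8. All sponge mice were above all control mice. The log2 fold change was 0.26 ± 0.09 (SE), with an edgeR p of 0.014 and an adjusted p of 0.970. Sv2b (mm9, chr7:82259783-82454148) has 2 RefSeq entries, and the share of its reads that was counted is not known.

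The fitted values of the glutamate transporters had opposite signs. For Slc17a7, the transporter of most cortical and hippocampal glutamatergic neurons (chr7:52419291-52431508), the sponge mice had 50296, 52074 and 49775 scaled reads and the controls 43875, 49811 and 47854. The lowest sponge mouse was just below the highest control, so the groups overlapped, at a log2 fold change of 0.13 ± 0.05 (edgeR p 0.030, adjusted p 0.970). It was at 0.08 without GFP Ctrl mouse 16. Slc17a6, the transporter of thalamic and other subcortical glutamatergic neurons (chr7:58877200-58926495), had 961, 749 and 1015.5 scaled reads in sponge mice and 1135, 964 and 1339.6 in controls. It was the member with an unadjusted p under 0.05 on the lower side, at -0.31 ± 0.12 (edgeR p 0.030, adjusted p 0.970), and 1 sponge mouse lay above the lowest control. Its value was -0.20 without GFP-miR-9sp mouse 23, -0.19 without GFP Ctrl mouse 8 and -0.32 without GFP Ctrl mouse 16, and in each case the unadjusted p no longer passed.

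Synapsin-2 (Syn2), which tethers reserve vesicles, had 17892, 18795 and 18768 scaled reads after GFP-miR-9sp and 16688, 17966 and 17076 in GFP Ctrl, with overlap in 1 sponge mouse and a log2 fold change of 0.12 ± 0.04 (edgeR p 0.019, adjusted p 0.970). Rab3c, a vesicle GTPase related to Rab3a, had 25184, 24561 and 25333 against 23498, 23974 and 24492, and these groups did not overlap. Its log2 fold change was 0.08 ± 0.04 (edgeR p 0.038, adjusted p 0.970). Synaptogyrin-1 (Syngr1), a vesicle membrane protein, had 16075, 15746 and 15637 against 14601, 14642 and 15783, so that GFP Ctrl mouse 8 exceeded 2 sponge mice, at 0.10 ± 0.04 (edgeR p 0.039, adjusted p 0.970). Syp, the vesicle protein with the highest level per length, had 40215, 40213.5 and 40992 against 40004, 39959 and 40676.5 and a log2 fold change of 0.03 ± 0.03. Sv2a, Syngr3 and Rph3a had log2 fold changes of 0.03 to 0.05, and Rab3b, Synpr, Syn3 and Sv2c of -0.08 to -0.02, all with an unadjusted p above 0.05.

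In the fusion machinery the complexins, small proteins that bind the assembled SNARE complex, had fitted values of both signs. Cplx2 had 61589.9, 67051 and 58807 scaled reads in GFP-miR-9sp mice and 56027, 61844 and 54221 in controls, at a log2 fold change of 0.15 ± 0.06 (edgeR p 0.044, adjusted p 0.970). Cplx1 had 18499, 17459.5 and 18743 against 17583, 17261 and 17607, at 0.08 ± 0.04 (edgeR p 0.048, adjusted p 0.970). Both pairs of groups overlapped, in Cplx1 through GFP-miR-9sp mouse 23. Without that mouse Cplx2 was at 0.08. Cplx3 had 309.6, 306 and 332 against 311, 271 and 601, where GFP Ctrl mouse 8 stood far above the other 5 mice. Its log2 fold change was -0.28 ± 0.25, and leaving out GFP Ctrl mouse 8 turned it to 0.14.

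Syt12, an atypical synaptotagmin without the usual calcium binding, had 765, 794 and 782 scaled reads after GFP-miR-9sp and 738, 719.6 and 736 in GFP Ctrl, with no overlap, at 0.12 ± 0.05 (edgeR p 0.041, adjusted p 0.970). The SNARE genes were closer to their controls. Vamp2 had 41412, 39652.5 and 42189.6 against 40663, 40919 and 41692, with a log2 fold change of 0.02 ± 0.04 that became -0.00021 when reads were scaled by totals alone. Snap25 was at 0.05 ± 0.06 and Stx1a at -0.06 ± 0.07, both overlapping their controls.

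At the active zone, Unc13a (Munc13-1), which primes vesicles for fusion, had the smallest unadjusted p of all members. The sponge mice had 12008, 12692 and 11611 scaled reads and the controls 10946, 11237 and 11052. All sponge mice were above all controls, and the controls lay within a narrow range. The log2 fold change was 0.15 ± 0.05 (edgeR p 0.009, adjusted p 0.970) for this gene at chr8:74150614-74195656 (mm9). Piccolo (Pclo) and bassoon (Bsn), the large scaffold proteins of the active zone, were at 0.17 ± 0.08 and 0.15 ± 0.09, and Erc2, which links scaffold and Rims proteins, at 0.10 ± 0.08 from 8131, 9499.6 and 8202 reads against 7591, 8803 and 8126. Erc2, whose value is also the median of the active zone genes, was at 0.0098 without GFP-miR-9sp mouse 23 and at 0.05 without GFP Ctrl mouse 16. These 3 overlapped their controls. Rims3 had 428, 353 and 452 against 568, 379.5 and 517, at -0.23 ± 0.14, and 2 of 3 sponge mice lay within the range of the controls.

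The endocytosis genes tested were at small positive values. Dnm1, which cuts vesicles from the membrane, had 46197, 47509.7 and 46888 scaled reads against 43757, 46304 and 45290.3, at a log2 fold change of 0.08 ± 0.04 with an unadjusted edgeR p of 0.071 (adjusted p 0.970). Sh3gl2 had 12036, 12213 and 11587 against 10719, 11683 and 11909, at 0.09 ± 0.05. Synj1, which has sites for both miRNAs, was at 0.06 ± 0.21 from 32.9, 53.7 and 43.1 against 38.0, 42.3 and 45.6 reads, so that its error was larger than its difference.

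**Figure D3:**
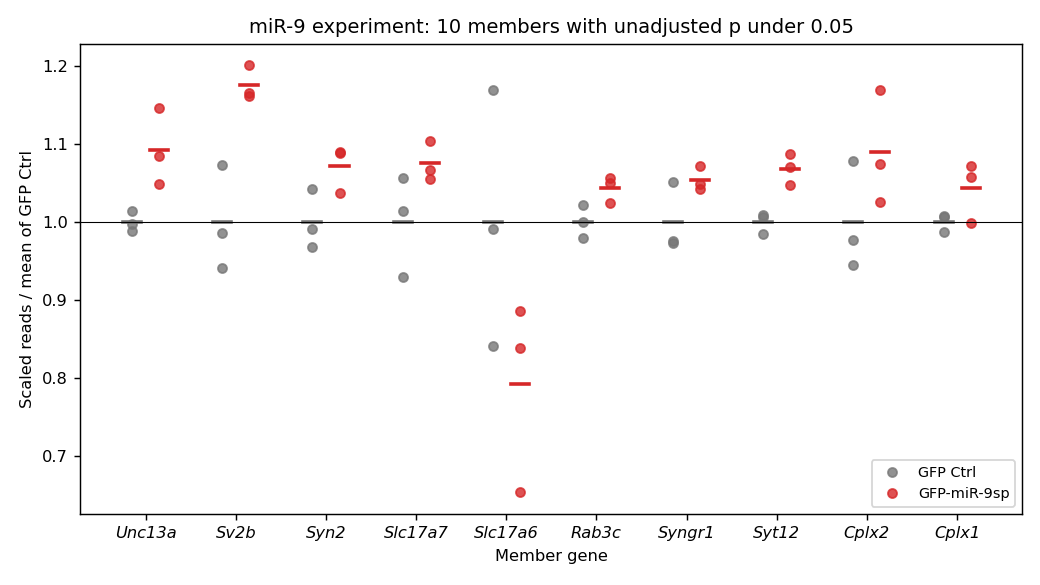
Scaled reads of each mouse of the miR-9 experiment divided by the mean of the 3 GFP Ctrl mice (y axis), for the 10 members with an unadjusted p under 0.05. Points are mice and bars are group means. In Unc13a, Sv2b, Rab3c and Syt12 all sponge mice lie above all controls, and Slc17a6 lies lower.

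Over the 38 members, 4 (10.5%) had all GFP-miR-9sp mice above all controls, against 3.11% of all genes, and 0 had all sponge mice below, against 7.86% (scaled by totals, with no test). Some other neuronal transcripts were also higher. The 9 joined neuron markers summed to 5220 to 5400 CPM after GFP-miR-9sp and 4852 to 5170 in GFP Ctrl, without overlap, and all 8 that were tested had positive log2 fold changes with a median of 0.09. Rbfox3, a defining neuron marker, was under 1 CPM. The 6 markers of CA pyramidal cells summed to 935 to 948 against 867 to 905, also without overlap, and the 6 microglia markers to 417 to 435 against 445 to 455. No marker of these lists passed an adjusted p of 0.05 in this experiment. The 6 dentate granule cell markers all had positive log2 fold changes with a median of 0.26, and their sums overlapped (336 to 526 against 307 to 447). Markers of interneurons, astrocytes, oligodendrocytes, choroid plexus, neocortex and thalamus overlapped between the groups. Of the tested interneuron markers, 2 were higher and 3 lower (median -0.0078). For neocortex 2 were higher and 5 lower (median -0.071), and for thalamus 1 and 3 (median -0.12). The part of neuronal content in the member values was not tested.

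After GFP-miR-34sp the members were centred on their controls when all 6 mice were used. In edgeR's test 0 of 38 members and 8 of 12492 genes (0.064%) had an adjusted p under 0.05, and DESeq2 called 0 members and 36 genes. At an unadjusted p under 0.05, 1 member was higher and 0 lower by either tool, against 2.71% and 3.72% of all genes with edgeR (6.43% in all). The log2 fold change was above 0 in 19 of 38 members, against 49.7% of genes, and the median was 5.72e-05. This rested on single mice. Without GFP-miR-34sp mouse 3, 28 members were above 0, with a median of 0.036. At an unadjusted p, 4 were then higher and 1 lower (10.5% and 2.63%, against 2.52% and 3.19% of genes). Without GFP-miR-34sp mouse 18, 15 members were above 0, with a median of -0.032. The adjusted p of the members lay between 0.610 and 0.997, and no member passed the criterion of the study's methods (0.784% of genes upward and 1.22% downward). The median SE of the members was 0.063 on the log2 scale, against 0.067 after GFP-miR-9sp.

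The member that stood apart was Pclo, the active zone scaffold (chr5:14514918-14863457). It had 2058, 2009 and 2186 scaled reads in GFP-miR-34sp mice 13, 18 and 3, and 1738, 1944 and 1939 in GFP Ctrl mice 10, 4 and 8. All sponge mice were above all controls, at a log2 fold change of 0.15 ± 0.05 (edgeR p 0.011, adjusted p 0.610). Without GFP Ctrl mouse 10, which was the lowest, the value was 0.10 and the unadjusted p no longer passed. Pclo is also 1 of the members with a miR-34 site, in exon 8 of 26 of the transcript searched. That site was absent from the UTR of the transcript with the longest coding sequence.

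Sv2a did not overlap its controls on the upper side, with 8594, 8700.01 and 8571 scaled reads against 8553, 8183 and 8510.19, at 0.03 ± 0.03. Cplx1 did not overlap on the lower side, with 10244, 9986 and 9466 against 10247, 10499 and 10376, at -0.07 ± 0.04. With Pclo, this made 2 members of 38 above (5.26%) and 1 below (2.63%) without overlap, against 6.2% and 5.43% of all genes. The abundant members differed little. Syp had 24369.8, 25130.1 and 23956 scaled reads after GFP-miR-34sp and 25129, 24586 and 23859 in GFP Ctrl, at -0.01 ± 0.04, and Dnm1 had 26598.5, 26682 and 25095 against 26788, 26544 and 26335, at -0.03 ± 0.04. Erc2 had 5603, 5776 and 5064 against 5604, 5519 and 5495, at -0.02 ± 0.05. Each of these 3 changed sign when 1 mouse was left out.

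The larger values in the miR-34 experiment came with large errors. Unc13c had 617, 671 and 408 scaled reads in sponge mice and 468, 525 and 1124 in controls, at -0.32 ± 0.28. GFP Ctrl mouse 8 stood far above the other 5 mice, and leaving it out turned the value to 0.19. Sv2c, a vesicle glycoprotein of the same family as Sv2b, had 308, 331 and 287 against 336, 258 and 422, at -0.14 ± 0.14, and turned to 0.04 without the same mouse. Cplx3 had 151, 108 and 76.4 against 97.6, 109 and 83.2, at 0.23 ± 0.22, and turned to -0.08 without GFP-miR-34sp mouse 13. Synj1 had 30.9, 30.3 and 28.4 against 27.7, 33.2 and 37.7 at -0.13 ± 0.20, and Rims3, at -0.24 ± 0.14, overlapped its controls. In these mice choroid plexus markers summed to 71.4 to 149 CPM after GFP-miR-34sp and 645 to 2365 in GFP Ctrl, and neocortex markers to 393 to 408 against 352 to 392, while neuron markers overlapped (4469 to 5044 against 4818 to 5034). Of the 8 choroid plexus markers, Folr1 and Otx2 were under 1 CPM, and 3 of the 6 tested had an adjusted p under 0.05. The part of the tissue next to the hippocampus in the member values was not tested.

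The members with a miR-34 site had values of both signs after GFP-miR-34sp, and their difference from the other members was not tested. Their median log2 fold change was 0.0042 in 7 members with a site and 0.0038 in 30 without one, beside -0.0049 in 628 tested genes with a site and -0.0022 in 9695 without. Vamp2, with its site at base 1280 of a UTR of 1718 bases, had 22626, 22173 and 21529 scaled reads after GFP-miR-34sp and 21901, 21637 and 21422.5 in GFP Ctrl, at 0.03 ± 0.04. Cplx2, with 2 sites, had 40828, 41413 and 40657 against 40628, 40517 and 41082, at 0.0042 ± 0.03. Syn2 was at 0.05 ± 0.04, Syt2 at -0.19 ± 0.13, Rims2 at -0.09 ± 0.24 and Synj1 at -0.13 ± 0.20. Of the 7, Pclo alone had an unadjusted p under 0.05. Rims2 and Synj1 had 23.1 to 37.7 scaled reads per mouse, so their values are imprecise.

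The difference between the sponge effects was fitted in 1 model of the 12 mice, which tests whether a member responded differently in the experiments. By edgeR 0 of 38 members and 0 of 12835 genes (0%) had an adjusted p under 0.05, and DESeq2 called 0 members and 5 genes. At an unadjusted p under 0.05, 3 members were higher after GFP-miR-9sp than after GFP-miR-34sp and 0 were lower, against 3.55% and 2.55% of genes (6.1% in all). DESeq2 gave 2 higher and 0 lower, against 2.42% and 1.51% of genes. These were Cplx1 at 0.16 ± 0.05 (edgeR p 0.013, adjusted p 0.739), Syt12 at 0.20 ± 0.08 (p 0.019, adjusted p 0.767) and Unc13a at 0.14 ± 0.06 (p 0.041, adjusted p 0.795), as log2 differences. The count was 1 (2.63%, against 3.06% of genes) without GFP-miR-34sp mouse 3 and 6 (15.8%, against 3.67%) without GFP-miR-34sp mouse 18. The difference was above 0 in 25 members, against 51.5% of genes, with a median of 0.07 in the members and 0.0053 in all genes. It was positive in 9 of 15 vesicle proteins, 6 of 13 fusion genes, 7 of 7 active zone genes and 3 of 3 endocytosis genes. In further genes of these roles that are not in the list, described below, it was positive in 8 of 16, 12 of 18, 5 of 11 and 11 of 18.

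The control mice themselves differed between the experiments. In CPM, 21 of 38 members (55.3%) were higher without overlap in GFP Ctrl of the miR-9 experiment, against 28.6% of all genes, and 2 were lower (5.26%, against 15%). Slc17a6 was at 56.9 ± 9.33 and 27.5 ± 9.00 (SD, n = 3), a ratio of 2.07, and Cplx3 at 19.6 ± 8.94 and 7.39 ± 0.99, a ratio of 2.65. Vamp1 had a ratio of 1.73, Syt2 of 1.46 and Vamp2 of 1.23. Synpr (0.69) and Cplx2 (0.91) were the members on the lower side. Experiment and library preparation cannot be told apart here, so these ratios are not read as a property of the animals.

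Members differed in how evenly they were measured among mice of 1 group. The log2 SD within groups had a median of 0.107 over the members and 0.0983 over all genes in the miR-9 experiment, and of 0.0875 and 0.104 in the miR-34 experiment. Syp (0.0152 in the miR-9 experiment) and Cplx2 (0.0124 in the miR-34 experiment) were among the most even. Unc13c (0.557 in the miR-34 experiment), Cplx3 (0.436 and 0.373) and Slc17a6 (0.236 and 0.350) were among the least even.

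The mice that were highest in uneven members were set beside their marker sums. GFP Ctrl mouse 8 of the miR-34 experiment, which was the highest mouse of its experiment in Unc13c, Slc17a6, Sv2c and Syt2, had the largest sum of thalamus and habenula markers of the 12 mice, at 151 CPM against 86.5 to 131 in the others. Its sums of choroid plexus markers (2365 CPM) and of astrocyte markers (3527 CPM) were also the largest of the 12 mice. In the miR-9 experiment the order was mixed. GFP Ctrl mouse 8 had the most Slc17a6 (66.5 CPM) and the largest thalamus sum (131 CPM) of that experiment. GFP Ctrl mouse 16 had the most Unc13c (84.9 CPM) of its experiment at a thalamus sum of 92.3 CPM. GFP-miR-9sp mouse 9 had more Slc17a6 (50.4 CPM) than GFP Ctrl mouse 2 (47.8 CPM), at thalamus sums of 87.3 and 124 CPM. Prkcd, a thalamic marker, was at 57.0 CPM in GFP Ctrl mouse 8 of the miR-34 experiment and at 42.1 or less elsewhere. Calb2 of the same list was at 51.3 CPM in that control mouse and highest in GFP-miR-9sp mouse 17, at 58.8 CPM. Zic1 was at 25.4 CPM in that control mouse and at 25.3 CPM in GFP Ctrl mouse 8 of the miR-9 experiment. Tcf7l2, Lef1, Tnnt1 and Plekhg1 of the same list were under 1 CPM in both experiments, and Gbx2 in the miR-34 experiment. GFP Ctrl mouse 8 of the miR-9 experiment, the highest in Cplx3, had the largest sum of neocortex and subplate markers, at 544 against 352 to 517, with Tbr1 at 182 and the subplate marker Nxph4 at 8.00 CPM. These are descriptions of single mice, and the part of dissection in the member values was not tested.

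**Figure D4:**
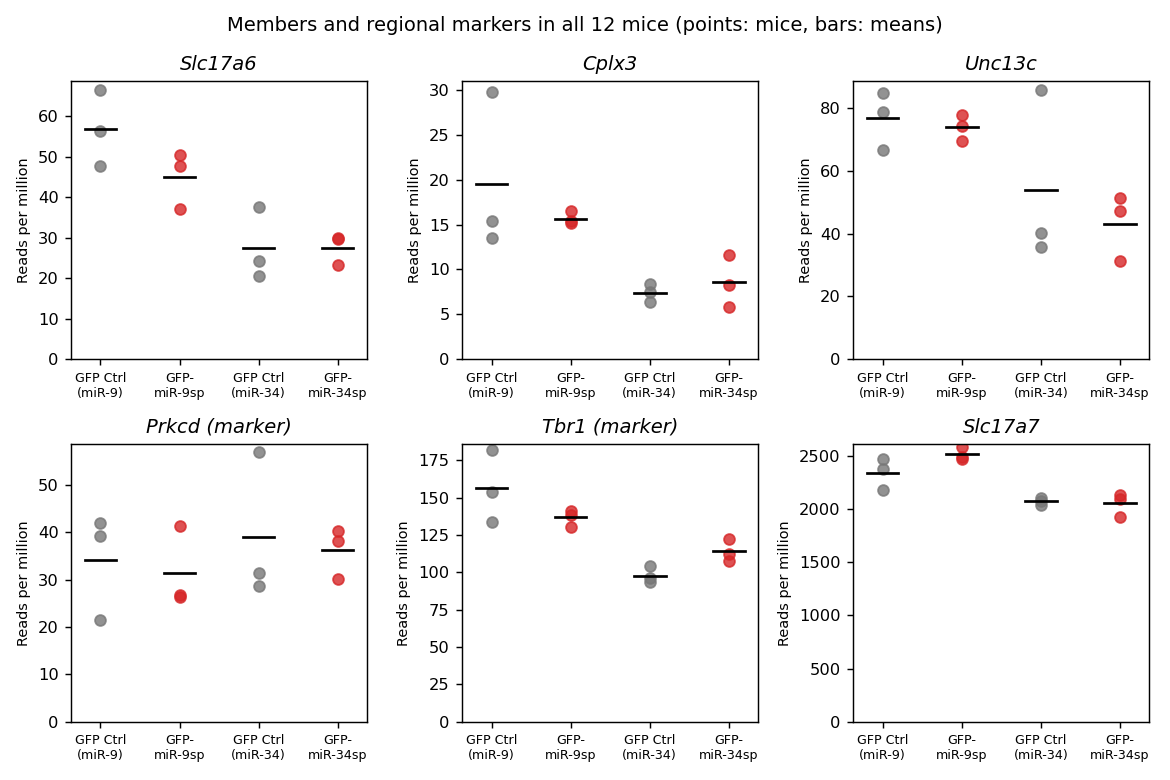
Counts scaled to 1000000 per mouse (CPM, y axis, from 0) of the members Slc17a6, Cplx3, Unc13c and Slc17a7 and of the markers Prkcd (thalamus) and Tbr1 (neocortex) in all 12 mice, with points for mice and bars for group means. The highest points of Unc13c and Prkcd belong to GFP Ctrl mouse 8 of the miR-34 experiment (Prkcd 57.0), and those of Cplx3 and Tbr1 to GFP Ctrl mouse 8 of the miR-9 experiment (Tbr1 182).

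Where a member had several RefSeq entries, their shares were compared, since they differ in sequence even where the gene's sum does not change. Snap25, which encodes the SNARE protein of the plasma membrane, has 2 entries of 2119 bases. The entry NM_001291056 took 9.61% ± 0.34 (SD, n = 3) of its reads in GFP Ctrl and 11.3% ± 1.39 in GFP-miR-34sp mice, and the groups overlapped, with a highest control of 9.99% and a lowest sponge mouse of 9.93%. In the fit per entry its log2 fold change was 0.19 ± 0.08 (edgeR p 0.032, adjusted p 0.714), while the other entry was at -0.07 ± 0.07. In the miR-9 experiment the share was 10.4% ± 1.85 after GFP-miR-9sp and 11.9% ± 1.34 in GFP Ctrl. For Syn2 after GFP-miR-9sp, the entry NM_013681 was at 0.15 ± 0.05 (edgeR p 0.010, adjusted p 0.968), and NM_001111015 was at -0.0040 ± 0.06. Synpr, a synaptophysin relative of dentate mossy fibres, had 226, 257 and 199.7 scaled reads in all after GFP-miR-9sp and 252, 251 and 195 in GFP Ctrl. Its minor entry NM_001163032 had 4, 5 and 3 counted reads against 21, 12 and 11. In the miR-34 experiment that entry had 8, 7 and 7 counted reads in sponge mice against 8, 4 and 1 in controls. These few reads are not scaled, and the difference was not tested.

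Of 82 further genes of vesicle cycling and release that are not in the list, 63 were tested in the miR-9 experiment and 62 in the miR-34 experiment. None had an adjusted p under 0.05 in edgeR's test or with DESeq2. At an unadjusted p under 0.05, 5 were higher and 1 lower after GFP-miR-9sp, and 0 were higher and 1 lower after GFP-miR-34sp, with the same counts by DESeq2. These are 7.94% and 1.59% of the genes tested after GFP-miR-9sp, against 2.47% and 2.26% of all genes, and 0% and 1.61% after GFP-miR-34sp, against 2.71% and 3.72%. The 5 became 0 (0%, against 2.59% of all genes) without GFP-miR-9sp mouse 23 and 1 (1.59%, against 1.26%) without GFP Ctrl mouse 16. They became 3 (4.76%, against 2.02%) without GFP Ctrl mouse 8. The 1 lower became 2 without GFP-miR-9sp mouse 23 or GFP Ctrl mouse 16 (3.17% in each, against 2.51% and 1.45%). After GFP-miR-34sp, 4 were higher (6.67%, against 2.52% of all genes) and 0 lower (against 3.19%) without GFP-miR-34sp mouse 3. Without GFP Ctrl mouse 10, 1 was higher (1.64%, against 2.77%). Without GFP Ctrl mouse 8 or GFP-miR-34sp mouse 18, 2 were lower (3.17% in each, against 3.12% and 3.4%). Their median log2 fold changes were 0.02 and -0.02. The smallest p after GFP-miR-9sp belonged to Syt9, a synaptotagmin calcium sensor, with 389.9, 308 and 298 scaled reads against 415, 485 and 396 and no overlap, at -0.36 ± 0.11 (edgeR p 0.009, adjusted p 0.970). Napa (alpha-SNAP), which helps NSF take SNARE complexes apart, was next at 0.13 ± 0.05. The others that were higher at an unadjusted p were Rimbp2 at 0.16 ± 0.06, Nsf at 0.12 ± 0.05, Napb at 0.12 ± 0.05 and Ap2a2 at 0.14 ± 0.06. After GFP-miR-34sp, Hspa8, the chaperone that uncoats clathrin vesicles, was lower at -0.08 ± 0.04 (edgeR p 0.049, adjusted p 0.772), and Stxbp2 was at 0.20 ± 0.09.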

How the data were processed

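Hippocampal RNA of 12 mice was sequenced as 50 bp single end reads after poly-A enrichment. The deposited values are raw counts, the reads that the authors assigned to each RefSeq entry, and the authors list the length in bases of every entry beside these as a further (other) value. The methods name mm9 as the genome, the submitters' processing notes name mm10 and STAR. The rule for reads shared between entries is not given in the sources used here. The word totRNA stands in the count labels of the miR-9 experiment alone, and a difference in preparation was not tested. Mice were grouped from their labels. The GFP Ctrl set whose experiment the titles do not name was assigned to the miR-9 experiment, since the methods give 3 such mice to each. Samples for miR-124 were not analysed here.

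Entries were joined to symbols (98.7%) and counts summed by symbol. Scaled reads are counts scaled to the mean total of the 6 mice of an experiment. Genes with a mean above 10 scaled reads were tested with edgeR 4.0.16 (R 4.3.3, TMM, quasi-likelihood), each experiment apart, with Benjamini-Hochberg adjustment over all genes tested. The biological coefficient of variation was 0.061 and 0.052. DESeq2 1.42.0 was the other tool. The code was tested on simulated data. Fitted fold changes use TMM factors and so differ slightly from ratios of scaled reads. No label says that mice of a group were handled apart, so p-values measure the spread between these mice, and an exact permutation test of 3 against 3 cannot go below 0.1. Sites were searched in GENCODE M1 on mm9, and sums over 10 marker lists were in CPM, counts scaled to 1000000 per mouse. Other steps used Python 3.11.15, pandas 2.3.3, scipy 1.17.1 and matplotlib 3.10.9.

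Members and lists were chosen with earlier results of these data known. Members named with the values of every mouse had an unadjusted edgeR p under 0.05, passed the criterion of the methods, or had the highest level or the largest fold change in their role group. Of the further genes, the 2 with the smallest p in each experiment were named. Sv2a, Cplx1 after GFP-miR-34sp, Synpr, Rimbp2, Nsf, Napb, Ap2a2 and the members with sites were added after their values were seen. The alternatives were DESeq2, its size factors in edgeR, scaling by totals, no filter, a mean above 100 reads, 1 model of 12 mice, entries not summed, other site definitions, unequal variances or TMM-scaled reads in the criterion of the methods, and leaving out each mouse. The use of members with 1 entry alone was added after the data were seen.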

Additional observations from a re-analysis of the deposited data

How the results depend on the processing

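The count of members with an adjusted p under 0.05 was 0 in both experiments and for the difference under every alternative that was run. The 9 members that were higher at an unadjusted p after GFP-miR-9sp became 4 when reads were scaled by totals alone, where the median of all genes was -0.02, and 1 to 6 on leaving out a mouse, and the 1 lower member became 0 in the model of 12 mice and 0 to 3 on leaving out a mouse. The median of the members then ranged from 0.024 to 0.084. After GFP-miR-34sp the 1 higher member became 0 in the model of 12 mice, 0 among members with 1 entry, 2 with entries not summed and 0 to 4 on leaving out a mouse, the lower count 0 to 2, and the median ran from -0.032 to 0.036. For the difference, leaving out a mouse gave 1 to 6 higher and 0 to 1 lower. In the same fits, 1.26% to 3.35% of all genes were higher and 1.45% to 2.87% lower after GFP-miR-9sp. After GFP-miR-34sp these shares were 2.3% to 2.77% and 2.8% to 4.8%, and for the difference 2.79% to 4.39% and 1.94% to 3.21%. In the model of 12 mice, 7 members were higher after GFP-miR-9sp (18.4%, against 2.94% of all genes) and 0 lower (against 2.02%). After GFP-miR-34sp 0 were higher and 0 lower in that model, against 2.97% and 3.68%. Of genes with 1 entry, 296 of 10952 were higher after GFP-miR-34sp. No share over all entries is given for entries not summed. The criterion of the methods was passed by 0 to 1 members after GFP-miR-9sp (1 without GFP Ctrl mouse 8). The share of all genes that passed without that mouse is not given here. When 7 bases sufficed, 10 members held a miR-9 site (23.3%, against 13.8% of tested genes) and 11 a miR-34 site (25.6%, against 17.3%). With the UTR of the longest coding sequence, 3 held a miR-34 site (6.98%, against 5.14%). The cause of these shifts was not tested.

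Of 311 recomputed values of named members, 302 kept their direction and their side of an adjusted p of 0.05. Vamp2 after GFP-miR-9sp reversed to -0.00021 with totals alone. On leaving out a mouse, signs turned for Cplx3 after GFP-miR-9sp (-0.49 to 0.14) and, after GFP-miR-34sp, for Cplx3 (-0.083 to 0.45), Dnm1 (-0.046 to 0.0089), Erc2 (-0.061 to 0.042), Sv2c (-0.29 to 0.039), Syp (-0.029 to 0.017) and Unc13c (-0.55 to 0.19). No paired analysis was possible because sponge mice and their controls share no mouse number in the labels. The members below the limit for testing each had 2 or more entries. Other members with 2 entries, such as Syn2 (9790 to 20225 reads per mouse), had many reads. The part of depth in the low counts was not tested.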
